A study of Mus musculus with 12 samples.

Results

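Sorted microglia came from wild-type mice and from mice with a microglial knockout of the histone deacetylase HDAC3, after sham surgery or ischemic stroke. The complement genes *C1qa*, *C1qb*, *C1qc*, *C3*, *C4b*, *Cfb*, *Cfp*, *C3ar1* and *C5ar1* were followed in them. These 9 members were taken from 55401 gene rows by symbol, from a list chosen with earlier results of these data known. Of them, 8 passed the filter on low counts and were tested among 16451 genes. Of the receptors for the complement fragments C3a and C5a, in sham-operated mice *C3ar1* was 4.28-fold and *C5ar1* 5.59-fold higher in the knockout group. The C1q chains, among the most abundant transcripts of these cells, moved by less than 1.7-fold.

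There were 12 libraries in 4 groups of 3 biological replicates: sham-operated mice of both genotypes (WT-Sham and miKO-Sham) and mice with stroke (WT-tFCI and miKO-tFCI). WT mice were CX3CR1 wt/wt and HDAC3 loxp/loxp. HDAC3-miKO (miKO) mice were CX3CR1 CreER/wt and HDAC3 loxp/loxp, so both genotypes carried the floxed alleles, and only the miKO mice carried CreER, in place of one *Cx3cr1* allele. Loss of HDAC3 and of this *Cx3cr1* allele therefore cannot be told apart in a comparison of genotypes. The mice were male. Knockout was induced with tamoxifen (100 mg/kg for 5 days at 6 to 8 weeks of age), and surgery followed at least 1 month later; whether WT mice also received tamoxifen is not given in the sources used here. Transient focal cerebral ischemia (tFCI) was a 60-min occlusion of the left middle cerebral artery. Sham mice had the same surgery without occlusion. CD45int CD11b+ cells were sorted on day 3 after tFCI, and each replicate pooled cells from 3 to 4 hemispheres. The *Cx3cr1* promoter is active in microglia and also in other macrophages and monocytes, and the interval before surgery was meant to let blood monocytes be renewed from unrecombined progenitors.

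Libraries held 7697864 to 9452222 counts on genes (median 8226429). Values are CPM, each gene's counts scaled to a common library size with TMM (trimmed mean of M-values) factors. Genes were called differentially expressed (DEGs) where edgeR's p, adjusted by Benjamini-Hochberg, was under 0.05 and the log2 fold change was beyond 0.58 in either direction. Replicate 1 of each group was sequenced in batch 1 and replicates 2 and 3 in batch 2, and batch was a term of the model. *Hdac3* stood at 34.9, 43.9 and 46.3 CPM in WT-Sham against 25.8, 24.9 and 20.8 CPM in miKO-Sham, which is a log2 difference of −0.81 (SE 0.16, edgeR adjusted p = 0.00281). After tFCI it was also lower in miKO, by 0.71 on the log2 scale (SE 0.16, edgeR adjusted p = 0.0127, and adjusted p = 0.0705 without WT-tFCI replicate 2). These are counts over the whole gene, and which exons the loxP sites flank is not given in the sources used here. The 10 microglia markers summed to 29217 to 38598 CPM in WT-Sham, 27203 to 32235 in miKO-Sham, 20874 to 23228 in WT-tFCI and 10427 to 20218 in miKO-tFCI, and none was at 0. The neutrophil list summed to 621 to 1180, 982 to 1042, 490 to 534 and 851 to 1044 CPM in the same order. Within it, *Csf3r* stood at 230 to 782 CPM. Its defining gene *Ly6g* was at most 0.740 CPM, whereas *S100a8* reached 332 CPM and *S100a9* 272 CPM. *S100a8*, *S100a9*, *Retnlg* and *Ltf* were called higher in miKO-tFCI than in WT-tFCI, by 2.30, 2.24, 2.57 and 2.41 on the log2 scale (highest edgeR adjusted p 0.0452). *Csf3r* went the other way there (log2 −0.43, edgeR adjusted p = 0.0379) without passing the fold threshold. *Mmp9* and *Camp* were not called (log2 1.76 and 1.81, edgeR adjusted p = 0.158 and 0.129). The T and NK cell list summed to 0.102 to 9.04 CPM, with *Cd3e* at 0 in both WT groups and at up to 18 counts (1.85 CPM) in miKO, in miKO-tFCI replicate 1.

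Some libraries stood apart. miKO-Sham replicates 1 and 2 were the closest pair of replicates (chi-square of their counts per degree of freedom 2.82, against 3.65 to 76.6 in other pairs). They differed by more than sampling noise and were kept as separate libraries. They carry different batch labels, 1 and 2. In the other 3 groups the closest pair was replicates 2 and 3, both of batch 2 (5.10 in WT-Sham, 3.65 in WT-tFCI and 12.9 in miKO-tFCI), whereas miKO-Sham replicate 3 stood at 37.9 and 40.8 from replicates 1 and 2. The batch labels of the miKO-Sham libraries therefore do not match the closeness of their counts, which bears on the batch term and on every within-batch value that uses miKO-Sham. SEs and p-values take these libraries as independent pools, which the counts alone cannot show for replicates 1 and 2. Replicate 3 of miKO-Sham carried more of the border-associated macrophage list (308 CPM in sum, against 59.2 and 56.6 in replicates 1 and 2), with *Mrc1*, *F13a1* and *Cd209f* all raised. The batch 1 libraries after tFCI carried more markers of monocytes and macrophages, dendritic cells, astrocytes and endothelial cells than their batch 2 partners. The plot of marker lists shows every library. Values without miKO-Sham replicate 3 stand beside *C4b*, *Cfp*, *Fcna* and *Serping1*.

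**Figure D1:**
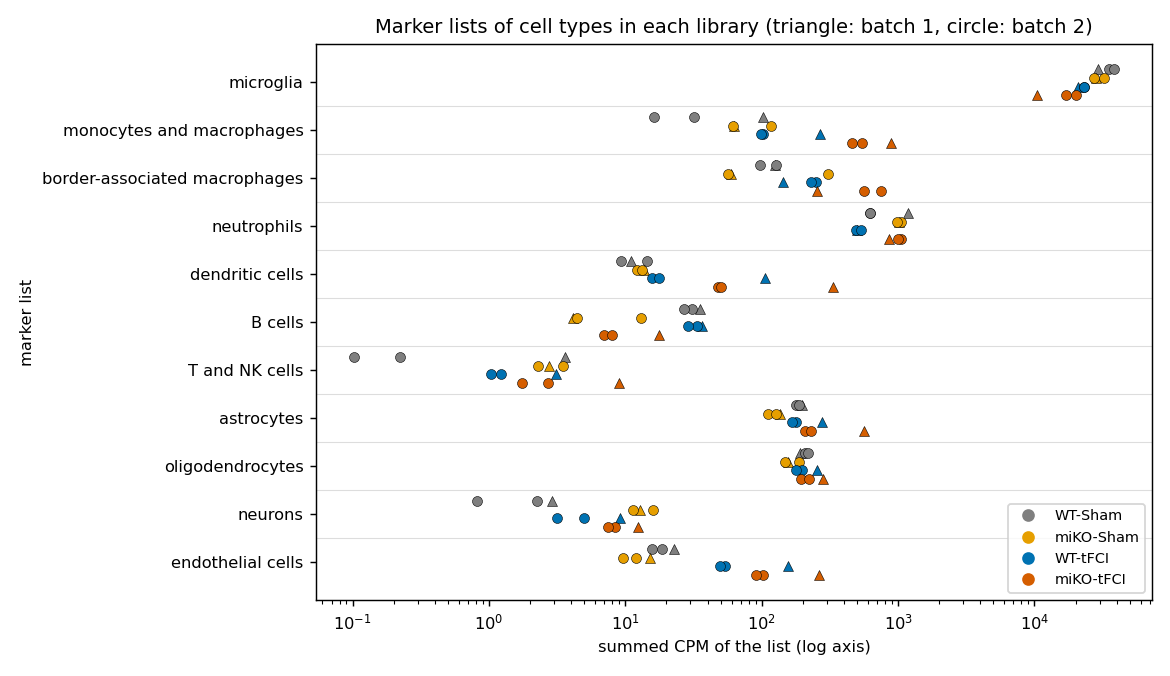
Summed CPM of each cell type's marker list (log axis) in each of the 12 libraries, coloured by group, with triangles for batch 1 and circles for batch 2. Microglia markers sum to at least 10427 CPM in all libraries, and miKO-tFCI replicate 1 has the highest monocyte and macrophage sum (888 CPM).

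Complement is a cascade of plasma and tissue proteins that tags targets for phagocytosis. C1q, assembled from A, B and C chains, starts the classical pathway by binding immune complexes, dying cells or synapses. The pathway runs through C4 and C2 to cleavage of C3, the point where all routes meet. Factor B (*Cfb*) forms the alternative pathway's C3 convertase and properdin (*Cfp*) stabilizes it. Cleavage releases C3a and C5a, which bind the G protein-coupled receptors C3aR1 and C5aR1 on myeloid cells, and in the brain microglia are the main source of C1q.

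All 9 genes lie on the minus strand of GRCm38. The 3 C1q genes are neighbours, *C1qb* at chr4:136880129-136886187, *C1qc* at chr4:136889804-136893065 and *C1qa* at chr4:136895917-136898803. *C4b* (chr17:34728380-34743882), *Cfb* (chr17:34856374-34862518) and *C3* (chr17:57203970-57228136) share a chromosome. *C3ar1* lies at chr6:122847138-122856161, *C5ar1* at chr7:16246743-16259540 and *Cfp* at chrX:20925454-20931555. In the GENCODE M21 annotation, 8 of the 9 genes share no exon base with another counted gene. Of the exon bases of *Cfb*, only 20.5% are free of *Gm20547*, a gene on the same strand.

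Promoter sequence is shown for 4 of the 5 members that were higher in miKO-Sham than in WT-Sham (*C1qb*, *C3*, *C3ar1* and *Cfp*), so that the letters before the start of each can be compared. These are the 250 bases before the RefSeq start in GRCm38.p6, written 5′ to 3′ on the minus strand, at chr4:136886201-136886450, chr17:57228137-57228386, chr6:122856158-122856407 and chrX:20931556-20931805. Their RefSeq starts lie within 13 bases of the GENCODE starts. For *C5ar1*, the RefSeq start lies 202 bases inside the GENCODE gene, and its window is not printed. Capitals mark matches to 8 motifs searched on both strands, namely TATAAA for the TATA box, GGGCGG for SP1, GAGGAAGT for PU.1, TTGCNNAA for the C/EBP type, TGANTCA for AP-1, TTCNNNGAA for the STAT type, the kappa B type (GGG, any 5 bases and then CC) and the ISRE type (GAAA, any 2 bases and then GAAA again). Overlapping matches run together.
C1qb: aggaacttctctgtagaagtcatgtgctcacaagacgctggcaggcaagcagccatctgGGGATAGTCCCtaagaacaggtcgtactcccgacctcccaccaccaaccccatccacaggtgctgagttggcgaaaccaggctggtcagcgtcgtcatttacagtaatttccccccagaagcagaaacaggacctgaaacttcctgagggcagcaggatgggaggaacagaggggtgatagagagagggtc
C3: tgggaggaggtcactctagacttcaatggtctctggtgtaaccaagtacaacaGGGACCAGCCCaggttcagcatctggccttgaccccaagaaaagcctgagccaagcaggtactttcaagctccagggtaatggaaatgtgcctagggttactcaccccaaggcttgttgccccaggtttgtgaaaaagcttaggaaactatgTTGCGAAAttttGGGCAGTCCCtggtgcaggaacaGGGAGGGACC
C3ar1: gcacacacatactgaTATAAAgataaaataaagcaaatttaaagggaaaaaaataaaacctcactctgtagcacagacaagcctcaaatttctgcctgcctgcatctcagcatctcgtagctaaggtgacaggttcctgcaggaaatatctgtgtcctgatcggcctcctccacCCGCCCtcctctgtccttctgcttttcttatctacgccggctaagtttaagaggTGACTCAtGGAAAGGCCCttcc
Cfp: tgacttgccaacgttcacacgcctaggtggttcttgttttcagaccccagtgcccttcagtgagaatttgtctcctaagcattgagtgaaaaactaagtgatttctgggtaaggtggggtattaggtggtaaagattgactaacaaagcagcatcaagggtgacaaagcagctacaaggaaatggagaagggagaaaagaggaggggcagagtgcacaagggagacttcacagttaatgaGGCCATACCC

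Each of these 4 windows held a kappa B type match, as did 45.8% of the 32817 promoters in the table. The *C3* window also held a C/EBP type match (9.57% of promoters). That of *C3ar1* held matches to AP-1 (6.75%), SP1 (32.7%) and the TATA box letters (12.4%). The table held promoters of 6 of the 9 members, and that of *C5ar1* had no match to any of the 8 motifs. A match is a run of letters, and binding was not measured.

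Across the 4 comparisons of groups, the members were called as follows. In WT-tFCI vs. WT-Sham, 5 of the 8 tested members rose (*C3*, *C4b*, *C3ar1*, *C5ar1* and *Cfp*) and 0 fell, where 20.9% of all genes tested rose, 11.7% fell and 32.6% were called in either direction. In miKO-tFCI vs. miKO-Sham, 3 rose (*C3*, *C4b* and *Cfp*; 21.9% of all genes) and 2 fell (*C1qb* and *C5ar1*; 13.9% of all genes), with 35.8% called in all. In miKO-Sham vs. WT-Sham, 5 were higher (*C1qb*, *C3*, *C3ar1*, *C5ar1* and *Cfp*) and 0 lower, against 8.58% and 6.8% of all genes, with 15.4% called in all. In miKO-tFCI vs. WT-tFCI, 3 were higher (*C3*, *C3ar1* and *Cfp*) and 0 lower, against 4.08% and 4.71% of all genes, with 8.79% called in all. Members whose groups did not overlap in CPM numbered 5 higher and 0 lower in WT-tFCI vs. WT-Sham (26.9% and 22.9% of all genes). They numbered 3 higher and 2 lower within miKO (26.5% and 21.7%), 6 higher and 0 lower in the sham comparison of genotypes (17.1% and 16.1%), and 2 higher and 2 lower in that after tFCI (9.5% and 13.3%). The median log2 fold change of the 8 tested members was 1.12, −0.23, 1.39 and 0.14 in these 4 comparisons, beside medians of 0.02, 0.03, 0.04 and 0.04 over all genes tested. Members that passed the filter on low counts through a group where they were high had to differ to be tested, and no test was made over the members as a list. These are bulk libraries, in which fewer cells of a type and less RNA per cell cannot be told apart.

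**Figure D2:**
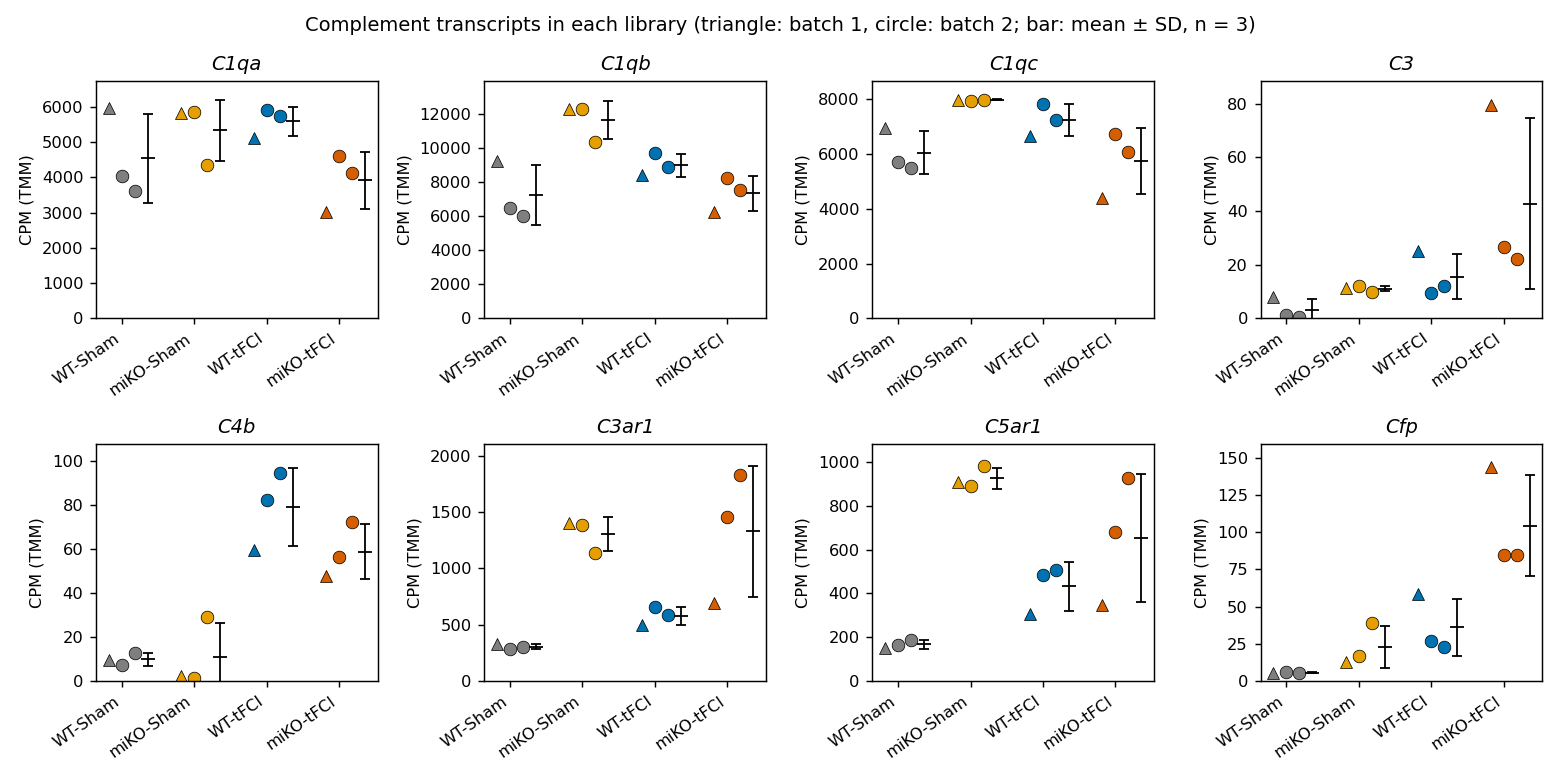
CPM of the 8 tested members in each library, one panel per gene, each axis starting at 0, with the mean and SD of 3 replicates beside the points (lower bars cut at 0). *C3ar1* and *C5ar1* sit higher in all 3 miKO-Sham libraries than in any WT-Sham library, and the batch 1 libraries (triangles) are lowest for both in miKO-tFCI.

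The C1q chains were abundant in every library. Per kilobase of exon, *C1qb* stood at 6661 ± 1613 CPM (SD, n = 3) in WT-Sham, *C1qa* at 4363 ± 1206 and *C1qc* at 3134 ± 410, which placed them at ranks 4, 5 and 9 of 16436 genes by level per length. In the other groups the chains ranked between 3 and 21. The SDs of *C1qa* and *C1qc* overlapped in WT-Sham, but within each of its libraries *C1qa* lay above *C1qc*. Per kilobase the pairs were 5737 and 3602, 3871 and 2960, and 3481 and 2839 CPM. No test was made on this order. Together the 3 chains took 1.41% to 2.46% of all counts on genes. The library lowest within its group for all 3 chains after tFCI in miKO, replicate 1, also had the lowest microglia marker sum of all libraries (10427 CPM, against 16934 and 20218 in replicates 2 and 3), and the part of this in the C1q levels was not tested.

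In CPM, *C1qa* stood at 5966, 4026 and 3620 in WT-Sham, at 5813, 5837 and 4340 in miKO-Sham, at 5106, 5905 and 5736 in WT-tFCI, and at 3019, 4602 and 4122 in miKO-tFCI. The values of WT-Sham replicate 1 reached those of the other groups, and miKO-tFCI lay below WT-tFCI in all 3 libraries. *C1qa* passed the thresholds in none of the 4 comparisons, with log2 fold changes of 0.31 and −0.44 for tFCI against sham in WT and miKO, and of 0.24 and −0.51 for miKO against WT after sham and tFCI, and edgeR adjusted p from 0.113 to 0.498. The sham value turned to −0.04 when libraries were scaled by total counts, a scaling that moved the median of all genes in that comparison from 0.04 to −0.23.

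*C1qb* was the chain that passed the thresholds. It stood at 9254, 6489 and 5999 CPM in WT-Sham and at 12292, 12284 and 10328 CPM in miKO-Sham, with no overlap. This was a log2 fold change of 0.69 (95% interval 0.29 to 1.09, edgeR adjusted p = 0.0192). The call was made under 17 of 22 alternatives. It was lost without WT-Sham replicate 2 or 3 or miKO-Sham replicate 1 or 2, with adjusted p from 0.0539 to 0.129, and under scaling by total counts. After tFCI, *C1qb* stood at 8381, 9680 and 8851 CPM in WT and at 6241, 8243 and 7536 CPM in miKO. The fall from miKO-Sham to miKO-tFCI was −0.66 (95% interval −1.06 to −0.26, edgeR adjusted p = 0.0113), and it was called under 18 of 22 alternatives. It was no longer past both thresholds with total counts (−0.53), with batch 2 only (−0.54), without miKO-tFCI replicate 1 (−0.54) or with only the groups compared (−0.68, adjusted p = 0.0687). WT-tFCI vs. WT-Sham gave 0.32 and miKO-tFCI vs. WT-tFCI −0.29, neither called.

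*C1qc* stood at 6956, 5715 and 5482 CPM in WT-Sham, 7991, 7959 and 7994 in miKO-Sham, 6651, 7840 and 7264 in WT-tFCI, and 4397, 6744 and 6088 in miKO-tFCI. The miKO-Sham libraries lay above the other groups and were nearly equal to each other. None of the 4 comparisons passed both thresholds. The closest was miKO-tFCI vs. miKO-Sham, with a log2 fold change of −0.48 (95% interval −0.85 to −0.11, edgeR adjusted p = 0.0378).

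The proportions of the chains were compared within libraries. *C1qb* made up 45.6% to 47.1% of the C1q sum in miKO-Sham and 39.7% to 41.7% in WT-Sham. *C1qa* made up 19.1% to 22.4% and 24.0% to 26.9%. After tFCI, *C1qb* took 40.5% to 41.6% in WT and 42.1% to 45.7% in miKO. *C1qa* then took 25.2% to 26.3% in WT and 22.1% to 23.5% in miKO. The ranges of the *C1qb* and *C1qa* shares did not overlap between genotypes after either surgery, whereas those of *C1qc* overlapped after both. The shares of a library sum to a fixed total, so they are not separate results, and no test was made on them. Shares within a library do not depend on the scaling between libraries.

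**Figure D3:**
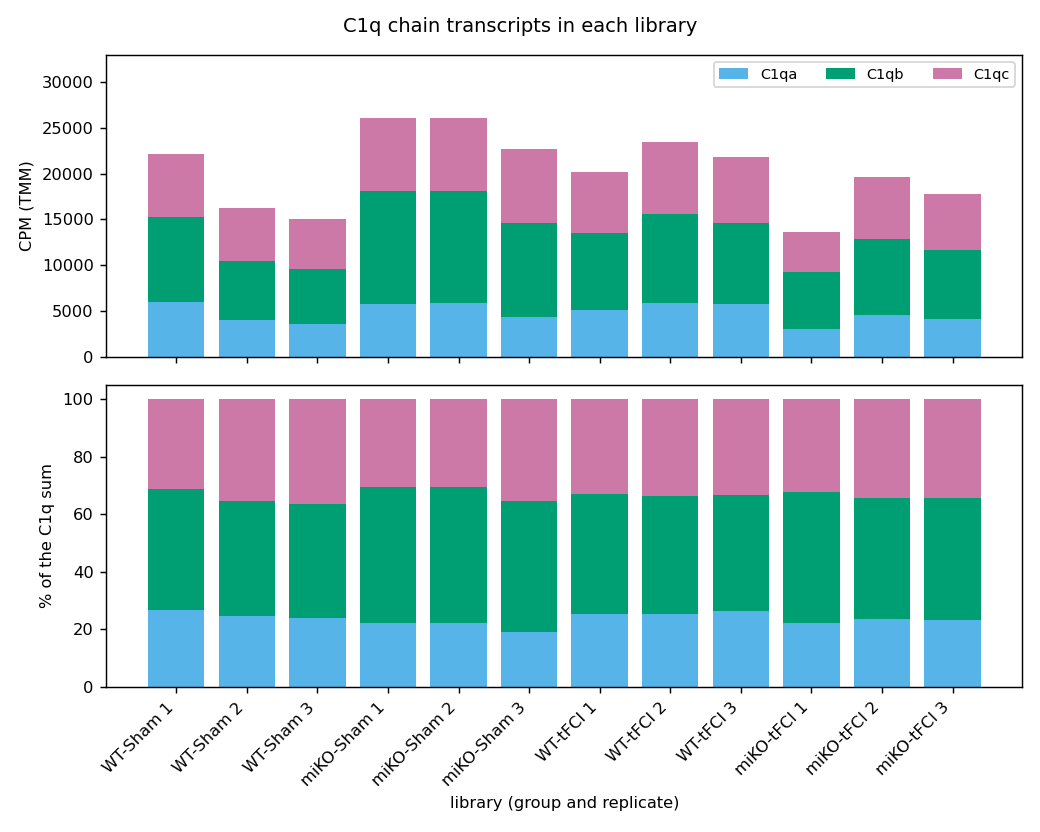
C1q transcripts in each library, with the stacked CPM of *C1qa*, *C1qb* and *C1qc* above and each chain's percentage of their sum below. The sum lies between 13657 CPM (miKO-tFCI replicate 1) and 26096 CPM (miKO-Sham replicate 1), and the *C1qb* share is highest in miKO-Sham.

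*C3*, the central component, was scarce in WT-Sham (7.80, 1.34 and 0.41 CPM, or 65, 12 and 4 counts) and stood at 11.4, 11.9 and 9.97 CPM in miKO-Sham. After tFCI it stood at 25.1, 9.44 and 11.9 CPM in WT and at 79.5, 26.6 and 22.1 CPM in miKO. Replicate 1, of batch 1, was the highest library in 3 of the 4 groups. *C3* rose 5.72-fold after tFCI in WT (log2 2.52, SE 0.45, edgeR adjusted p = 0.000521) and 3.14-fold in miKO (log2 1.65, SE 0.39, adjusted p = 0.00362). In sham-operated mice it was 4.70-fold higher in miKO (log2 2.23, SE 0.46, edgeR adjusted p = 0.00335). That difference was 0.53 in batch 1 and 3.46 in batch 2, and a fit with no batch term gave an adjusted p of 0.150. After tFCI it was 2.58-fold higher in miKO than in WT (log2 1.37, SE 0.38, edgeR adjusted p = 0.0333). These 2 groups overlapped, and the call was made under 14 of 21 alternatives. It was lost without any one of the 6 tFCI libraries and in a fit with no batch term (edgeR adjusted p = 0.256).

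*C4b*, the complement C4 of mice, stood at 9.71, 7.15 and 12.8 CPM in WT-Sham and at 59.8, 82.4 and 94.7 CPM in WT-tFCI, a 7.82-fold rise (log2 2.97, SE 0.61, edgeR adjusted p = 0.00153). In miKO-Sham it stood at 2.36, 1.25 and 28.9 CPM, and in miKO-tFCI at 47.9, 56.4 and 72.4 CPM, a 5.76-fold rise (log2 2.53, SE 0.61, adjusted p = 0.00409). The third miKO-Sham library, the one with more border-associated macrophage markers, was over 10 times the others. With it, *C4b* was not called between miKO-Sham and WT-Sham (log2 0.03, 95% interval −1.34 to 1.41). Without it the log2 difference was −2.39 (edgeR adjusted p = 0.000408), the rise after tFCI in miKO was 4.95, and the interaction moved from −0.44 to 1.97 (adjusted p = 0.0159). For miKO-Sham these values rest on replicates 1 and 2, the closest pair of replicates. After tFCI the genotypes overlapped (log2 −0.41, 95% interval −1.56 to 0.75). *C4b* has a near-identical paralog, *C4a*, at 0 to 5 counts per library here, and reads that fit both genes may be missing from both, so that its level is uncertain.

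*Cfp*, which encodes properdin, was higher in every comparison. It stood at 5.40, 5.92 and 5.22 CPM in WT-Sham, at 12.7, 16.6 and 38.9 CPM in miKO-Sham, at 58.2, 27.1 and 23.0 CPM in WT-tFCI, and at 144, 84.4 and 84.9 CPM in miKO-tFCI. All 3 miKO-tFCI libraries lay above all others. The rise after tFCI was 6.25-fold in WT (log2 2.64, SE 0.42, edgeR adjusted p = 0.000193) and 4.32-fold in miKO (log2 2.11, SE 0.37, adjusted p = 0.000455). In miKO it was 4.26-fold higher after sham surgery (log2 2.09, SE 0.42, edgeR adjusted p = 0.00276) and 2.94-fold higher after tFCI (log2 1.56, SE 0.36, adjusted p = 0.0139). The sham difference was 1.35 without miKO-Sham replicate 3 (adjusted p = 0.00778). The tFCI difference was no longer called without WT-tFCI replicate 2 or 3, without miKO-tFCI replicate 1, or without the batch term (highest adjusted p 0.0810).

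Markers of other myeloid cells also differed between the groups. The 9 monocyte and macrophage markers summed to 16.1 to 102 CPM in WT-Sham, 61.1 to 117 in miKO-Sham, 98.1 to 269 in WT-tFCI and 458 to 888 in miKO-tFCI. None of them was at 0 in a whole group, and *Chil3* was the highest in each. The 7 border-associated macrophage markers summed to 97.9 to 127, 56.6 to 308, 143 to 249 and 253 to 747 CPM in the same order. In miKO-tFCI, replicate 1, which was highest for *C3*, *Cfp* and the monocyte and macrophage sum, was lowest for the border-associated list (253 CPM, against 560 and 747). In WT-Sham, replicate 1 had the highest *C3* and also the highest *S100a8* (272 CPM, against 21.5 and 13.8). The part of these cells, and of the neutrophil genes given above, in the levels of *C3*, *C4b* and *Cfp* was not tested.

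*Cfb* was not tested. It had 0 to 6 counts per library, and its exons are shared with *Gm20547*, so that reads on most of the gene fit both rows and the number of reads it received cannot be read from these files. A count of 3, the limit that a count of 0 allows, corresponds to 0.317 to 0.390 CPM per library, which covers counting error only.

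*C3ar1*, the C3a receptor, stood at 330, 283 and 304 CPM in WT-Sham and at 1406, 1383 and 1133 CPM in miKO-Sham. The groups did not overlap, with a log2 fold change of 2.10 (SE 0.25, edgeR adjusted p = 2.94e-05), and of 2.09 within each batch. All 22 alternatives made this call. The doubt given above about the miKO-Sham batch labels bears on the within-batch values of *C3ar1* here and of *C5ar1* below. These values are therefore not separate checks. WT-tFCI libraries stood at 497, 654 and 585 CPM, above all WT-Sham libraries. The rise was 1.87-fold (log2 0.90, SE 0.24, edgeR adjusted p = 0.00843), with an adjusted p of 0.0523 without WT-Sham replicate 2. miKO-tFCI libraries were spread out, at 697, 1456 and 1832 CPM, the batch 1 library being the lowest. That library also had the lowest microglia marker sum (10427 CPM) and was lowest in its group for *C5ar1* too; the part of this in either receptor's level was not tested. They lay above WT-tFCI (2.25-fold, log2 1.17, SE 0.24, edgeR adjusted p = 0.00738), by 0.49 within batch 1 and 1.40 within batch 2. Within miKO, *C3ar1* did not pass the test between tFCI and sham (log2 −0.03, 95% interval −0.54 to 0.49), and the sign differed between batch 1 (−1.01) and batch 2 (0.38).

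*C5ar1*, the C5a receptor, stood at 151, 163 and 187 CPM in WT-Sham and at 906, 888 and 980 CPM in miKO-Sham, with no overlap. The log2 fold change was 2.48 (SE 0.22, edgeR adjusted p = 2.17e-06) and 2.58 and 2.42 within batches 1 and 2. In WT-tFCI it stood at 304, 484 and 507 CPM, a 2.52-fold rise over WT-Sham (log2 1.34, SE 0.21, edgeR adjusted p = 0.000204). In miKO-tFCI it stood at 349, 681 and 927 CPM. Against miKO-Sham this was a fall of −0.58 (SE 0.21, edgeR adjusted p = 0.0360) just past the fold threshold, with groups that overlapped. It was called under 12 of 22 alternatives, being −0.24 with batch 2 alone and losing its call without miKO-Sham replicate 1 or miKO-tFCI replicate 1 or 2. After tFCI the genotypes overlapped and *C5ar1* was not called (log2 0.56, 95% interval 0.12 to 1.01, edgeR adjusted p = 0.103), but it was called without miKO-tFCI replicate 1.

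The response of *C5ar1* to tFCI differed between genotypes. Its log2 change was 1.34 in WT and −0.58 in miKO, a difference of −1.92 (SE 0.30, 95% interval −2.55 to −1.28, edgeR adjusted p = 0.00228). *C5ar1* was the member called in this interaction of genotype and surgery, where 3.82% of all genes were called at an adjusted p under 0.05 (1.25% above 0 and 2.57% below 0). It was −2.39 in batch 1 and −1.74 in batch 2, and was called under all 21 alternatives (adjusted p from 1.12e-16 to 0.0351). For *C3ar1* the same difference was −0.93 (SE 0.34, edgeR adjusted p = 0.159) and for *C1qb* it was −0.97 (SE 0.26, adjusted p = 0.0557), neither called. In the fit over both batches all 8 tested members had a value below 0, with a median of −0.81 beside −0.02 over all genes tested, but within batch 1 *C3* (1.13), *C4b* (1.62) and *Cfp* (0.094) and within batch 2 *C4b* (0.11) lay above 0. Other settings called 1 to 5 members.

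**Figure D4:**
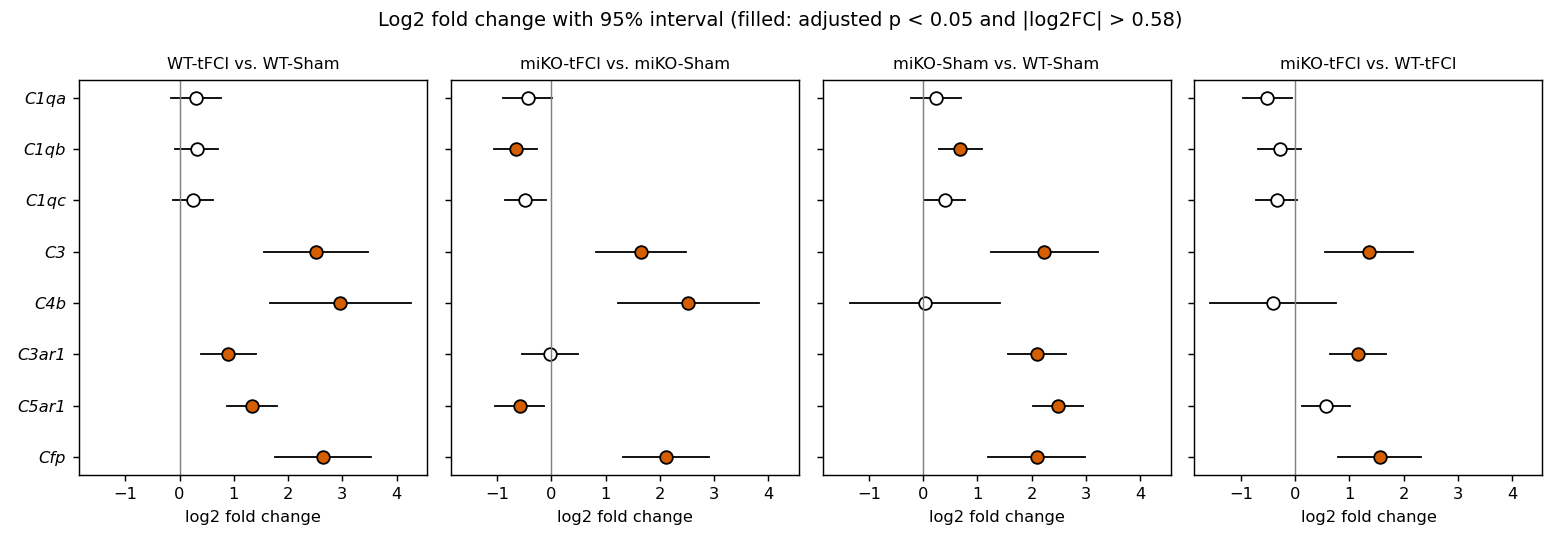
Log2 fold change of the 8 tested members with its 95% interval in the 4 comparisons, filled where the gene was called. *C3ar1* and *C5ar1* lie above 2 in miKO-Sham vs. WT-Sham, and the C1q chains lie between −0.66 and 0.69 throughout.

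Over the 12 libraries, after removal of batch means, log2 CPM of *C3ar1* and *C5ar1* had a Pearson r of 0.96, that of *C1qb* and *C1qc* 0.94, and that of *C3* and *Cfp* 0.90. Between *C4b* and *C3ar1* it was −0.02. These values describe 12 points that share groups, depth and scaling. Among 8744 other protein-coding genes with a mean of at least 10 CPM, the genes most like *C3ar1* were *Pon2* (r = 0.99), *Lipa* (0.99) and *Timp2* (0.99). Those most like *C5ar1* were *Cd22* (0.98), *Retsat* (0.97) and *Dgkz* (0.97). *C3* was most like *Cd274* (0.97), *Phb* (0.97) and *Prdx5* (0.97), and *Cfp* most like *Tpst1* (0.98), *Plekhb1* (0.98) and *Ccr7* (0.97). *C4b* was most like *Fgl2* (0.95), *Rpa1* (0.94) and *Slc39a14* (0.94). *C1qa* was most like *Naip2* (0.92), *Abl2* (0.91) and *Aif1* (0.91), *C1qb* like *Mrps15* (0.97), *Fcgr1* (0.96) and *Nfe2l2* (0.95), and *C1qc* like *Naip2* (0.97), *Pfkfb3* (0.95) and *C1qb* (0.94).

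The wider pathway was read from a list of 48 other complement genes, of which 24 were tested. Genes of this list that passed the filter on low counts through a group where they were high had to differ to be tested. *Vsig4* had at most 2 counts in a sham library, *C1s1* at most 3 and *Serping1* at most 13. The counts and medians below include these genes, and no test was made over the list. In WT-tFCI vs. WT-Sham, 12 rose and 2 fell (median log2 fold change 1.29, against 0.02 over all genes), where 20.9% of all genes tested rose and 11.7% fell. In miKO-tFCI vs. miKO-Sham, 13 rose and 2 fell (median 1.19), against 21.9% and 13.9% of all genes. In miKO-Sham vs. WT-Sham, 4 were higher and 1 lower (median 0.40), against 8.58% and 6.8%. In miKO-tFCI vs. WT-tFCI, 5 were higher and 1 lower (median 0.35), against 4.08% and 4.71%. In the interaction, edgeR called 0 of the 24, with 3 at an unadjusted p under 0.05 (*Itgax*, *Itgb2* and *Cd93*), where 17.8% of all genes had one, and DESeq2 called 1.

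Among initiation genes, *C1ra*, a protease of the C1 complex, rose after tFCI in WT (log2 2.08, SE 0.55, edgeR adjusted p = 0.00796) and in miKO (log2 2.73, SE 0.57, adjusted p = 0.00143). *Masp1*, a lectin pathway protease, rose from 1.56 to 4.58 CPM in WT-Sham to 14.9 to 19.0 CPM in WT-tFCI (log2 2.31, SE 0.41, edgeR adjusted p = 0.000541). *Fcna*, a lectin of the ficolin family, was higher in miKO-Sham (4.99, 7.20 and 60.0 CPM) than in WT-Sham (2.23 to 3.96 CPM), with replicate 3 of miKO-Sham far above the others (log2 2.56, SE 0.72, edgeR adjusted p = 0.0223). Without that library the difference was 1.08 (adjusted p = 0.260), and within batch 1 it was 0.32. After tFCI *Fcna* stood at 4.06 to 12.2 CPM in WT and 13.8 to 113 CPM in miKO. That difference was called (log2 2.84, edgeR adjusted p = 0.0113), also with batch 2 alone (3.15, adjusted p = 0.00624). The 1 terminal gene that was tested, *C8g*, was called in none of the comparisons.

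Among regulators, *Serping1*, the C1 inhibitor, rose from 0.31 to 0.84 CPM in WT-Sham to 4.26 to 29.2 CPM in WT-tFCI, and from 0.55 to 1.66 CPM in miKO-Sham to 15.0 to 97.8 CPM in miKO-tFCI. Its log2 fold changes were 4.43 (SE 0.58, edgeR adjusted p = 3.68e-05) and 5.31 (SE 0.52, adjusted p = 2.99e-06), and 3.80 and 4.18 with batch 2 alone, both called. Without miKO-Sham replicate 3 the rise in miKO was 6.59. After tFCI *Serping1* was called higher in miKO than in WT (log2 1.85, edgeR adjusted p = 0.00680), with ranges that overlapped. *Clu*, which encodes clusterin, reached 316 and 912 CPM in the batch 1 tFCI libraries of WT and miKO, against at most 40.4 and 123 CPM in their batch 2 partners. It rose after tFCI by 2.16 in WT and 2.45 in miKO on the log2 scale, and by 1.11 and 1.64 with batch 2 alone (edgeR adjusted p = 0.0102, 0.00320, 0.00942 and 0.000689). *Cd55* and *Cd59a*, which protect cells from complement, also rose after tFCI in both genotypes. With batch 2 alone, *Cd55* was called in neither genotype (adjusted p = 0.116 and 0.0771) and *Cd59a* was not called in miKO (adjusted p = 0.0892). Astrocyte markers were highest in the same batch 1 libraries (279 CPM in WT-tFCI replicate 1 and 563 CPM in miKO-tFCI replicate 1), and their part in these values was not tested. *Csmd3*, a gene of the CUB and Sushi family that the list used here places among the regulators, was low in miKO. Whether it acts on complement in these cells was not tested. It stood at 146 to 189 CPM in WT-Sham and 1.80 to 3.84 CPM in miKO-Sham (log2 −6.01, SE 0.21, edgeR adjusted p = 4.24e-10), and at 53.7 to 62.1 and 0.92 to 1.85 CPM after tFCI (log2 −5.46, SE 0.22, adjusted p = 4.53e-09).

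Among receptors, *Itgax*, the alpha chain of complement receptor 4, stood at 2.76 to 6.72 CPM in WT-Sham, 17.4 to 22.0 in miKO-Sham, 15.9 to 22.1 in WT-tFCI and 40.7 to 43.9 in miKO-tFCI, and was called higher in all 4 comparisons. *Cd93* was higher in miKO-Sham (14.1 to 29.8 CPM) than in WT-Sham (1.54 to 4.08 CPM), with a log2 fold change of 3.26 (SE 0.35, edgeR adjusted p = 1.29e-05). *Itgb2*, the chain shared by complement receptors 3 and 4, was higher in miKO-Sham by 0.74 (SE 0.16, edgeR adjusted p = 0.00387). *C5ar2*, the second C5a receptor, moved the other way from *C5ar1* after tFCI in WT, from 24.8 to 27.2 CPM in WT-Sham to 12.4 to 15.7 CPM in WT-tFCI (log2 −0.91, SE 0.25, edgeR adjusted p = 0.00930). It also fell in miKO, by 1.01 on the log2 scale. *Vsig4*, a receptor for C3 fragments, had 0 counts in the 3 WT-Sham libraries and 0.95 to 3.22 CPM in WT-tFCI.

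**Figure D5:**
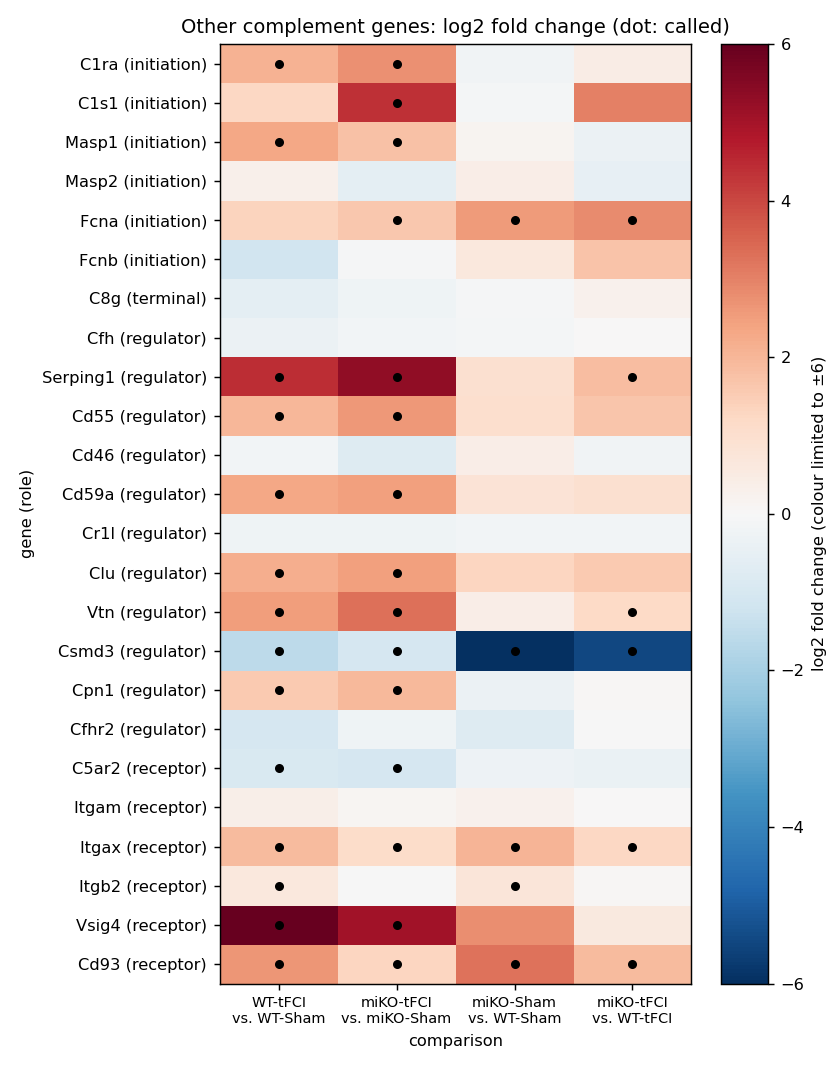
Log2 fold change of the 24 tested genes of the wider complement list in the 4 comparisons, by colour, with a dot where the gene was called. *Serping1* is deep red in both comparisons of tFCI with sham and *Csmd3* deep blue in both comparisons of genotypes, and the fitted values of *Vsig4* and *C1s1*, which have few or no counts in sham libraries, depend on the prior count.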

How the data were processed

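RNA of sorted CD45int CD11b+ cells was sequenced in 12 libraries. Per the labels and processing notes, the authors used SMART-Seq v4 libraries, FastQC 0.11.9, Trim Galore, HISAT2 2.2.1, SAMtools and HTSeq 1.99.2 on mm10 (GRCm38.p6). The deposited values are counts per gene without normalization, with genes taking 30.7% to 38.5% of all counted reads. The paper names another sorter than the labels. Reads that fit several genes may be missing from the counts, which lowers overlapping genes and close paralogs. Whether reads were assigned by strand is not given in the sources used here.

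Identifiers were matched to GENCODE M21 without version numbers (55141 of 55401). In R 4.3.3, edgeR 4.0.16 fitted group and batch over all 12 libraries by quasi-likelihood after filterByExpr and TMM (factors 0.864 to 1.11, common biological coefficient of variation 0.199). Adjusted p-values are Benjamini-Hochberg over all 16451 genes. SEs come from the F statistic. The code of the fit was checked on simulated counts with the same spread for all genes, no batch difference and changes in miKO-tFCI only. That check does not cover batch differences or the single libraries that stood apart. Replicates are pools of 3 to 4 hemispheres, so p-values measure the spread between pools. Levels per length are CPM per kilobase of exons. Log2 CPM used a prior count of 2. RefSeq promoters matched 6 of the 9 members. The alternatives were DESeq2 1.42.0, other scalings and filters, no batch term, batch 2 alone, a replicate block, only the groups compared, and each library left out.

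The members, the wider complement list, the marker lists and the tests were chosen with earlier results of these data known. Named were the members, *Hdac3*, genes of the wider list called in a comparison with a mean of at least 1 CPM in a group, the 3 genes most like each member, and markers. *C8g*, *C4a* and *Gm20547* were named after their values were seen.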

Additional observations from a re-analysis of the deposited data

Results flagged for a closer look

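The change of *C5ar1* with tFCI differed between the genotypes in a test of the difference itself. Its log2 genotype difference after tFCI minus that after sham surgery was −1.919 (edgeR adjusted p = 0.00228). The 3 WT-tFCI libraries lay above the 3 WT-Sham libraries, whereas 2 of the 3 miKO-tFCI libraries lay below all miKO-Sham libraries. Groups of 3 were not tested for single libraries far from the others.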

How the results depend on the processing

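Of 971 alternative values of member and *Hdac3* fold changes, 900 kept their direction and side of the thresholds, 33 lost a call, 22 gained one and 16 changed sign. Members called in WT-tFCI vs. WT-Sham numbered 3 (and 6 genes of the wider list) when 10 counts were required in every library, and 4 to 5 with a library left out. In miKO-tFCI vs. miKO-Sham they numbered 2 (wider list 6) with 10 counts in every library, 3 with total counts, batch 2 only or only the groups compared, and 3 to 5 with a library left out. In miKO-tFCI vs. WT-tFCI they numbered 1 without the batch term and 1 to 3 with a library left out, and the wider list gave 11 without a filter, 3 with 10 counts, 3 without the batch term and 11 with only the groups compared. In the interaction, members called numbered 3 with DESeq2, 2 with median-of-ratios or upper-quartile factors, 5 without a filter, 5 with batch 2 only and 1 to 4 with a library left out, and the wider list gave 1 with DESeq2 and 2 without a filter. The stricter filter tests fewer genes; the cause of the other shifts was not tested.

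Signs changed for *C3ar1* in miKO-tFCI vs. miKO-Sham (0.085 with total counts, 0.031 with 10 counts, 0.024 without the batch term, 0.36 with batch 2 only, −0.31 to 0.29 with a library left out), *C1qa* in miKO-Sham vs. WT-Sham (−0.044 with total counts) and *C4b* there (−0.080 with DESeq2, −0.19 with total counts, −0.10 with only the groups compared, −2.39 to 0.58 with a library left out). In the interaction they changed for *C4b* (−0.98 to 1.97), *Cfp* (−0.99 to 0.22) and *Hdac3* (−0.053 to 0.28) with a library left out.

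Same-numbered libraries did not all deviate together (r from −0.06 to 0.67). The median r was 0.14, −0.007 and 0.22 for numbers 1, 2 and 3, against −0.07 for pairs of different numbers. These values are centred within groups of 3 libraries and cannot decide whether the numbers pair the samples. A replicate block gave −0.20 for *C4b* in miKO-Sham vs. WT-Sham and the same counts of members called, 5, 5, 5, 3 and 1.

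All-gene counts moved by over 1.5 times in miKO-tFCI vs. miKO-Sham (5887 to 3744 with 10 counts), in miKO-tFCI vs. WT-tFCI (1446 to 2193 without a filter, 701 without batch, 2535 with only the groups compared, 616 to 1667 with a library left out) and in the interaction (629 to 1004 with DESeq2, 1272 without a filter, 303 without batch, 281 to 883 with a library left out). Total counts changed the split in miKO-Sham vs. WT-Sham from 1411 higher and 1119 lower to 834 and 2398, in miKO-tFCI vs. WT-tFCI from 671 and 775 to 491 and 1061 (and it was 1542 and 993 with only the groups compared, 1200 and 993 without a filter and 213 and 488 without batch), and in the interaction from 206 and 423 to 292 and 279. Depth limits *C3* in WT-Sham, which rests on few counts. *Cfb* is limited in every group by the exons it shares with *Gm20547*.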
